A study of Mus musculus with 20 samples.

Results

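The dual-specificity MAP kinase phosphatases described here are 10 genes taken by name, *Dusp1*, *Dusp2*, *Dusp4*, *Dusp5*, *Dusp6*, *Dusp7*, *Dusp8*, *Dusp9*, *Dusp10* and *Dusp14*, out of 21627 protein-coding genes. Binding of Suz12, which belongs to the core of the Polycomb complex PRC2, was measured at them by ChIP-seq. The cells were mouse embryonic stem cells (ESCs) of the E14 line, wild type in genotype, cultured on gelatin in medium with serum and leukemia inhibitory factor. All groups share this line and medium, and they differ in an inhibitor of transcription and its time. The groups were DRB at 0 h, DRB (100 µM) at 12 h, triptolide at 0 h and triptolide (10 µM) at 9 h, with 2 libraries each, so that 8 of the 20 samples of the series entered. DRB inhibits the kinase that releases paused RNA polymerase II, and triptolide acts on the TFIIH helicase at initiation. The question put to these genes is where Suz12 lies before transcription is blocked and after it.

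Each of the 10 genes had exactly 1 Suz12 region within 1 kb of an annotated end, out of 11943 regions made by merging the peaks of the 8 lists. Over all protein-coding genes, 7961 of 21627 had a region at an end. The 10 genes were chosen with earlier results of these data known, so their count is not read against this share. At 8 genes the region was kept, which means that every list had a peak there, and at *Dusp1* and *Dusp6* it was gained, with a peak in the 4 treated lists and in no untreated list. Over all regions 4281 were kept, 1065 were gained and 1 was lost. Reads over the region rose after the inhibitors at 6 of the 10 genes and fell at 2, where 27.9% of all regions rose and 28.9% fell. Scaled to the kept regions instead, 8 rose and 0 fell, where 47.4% of all regions rose and 11.2% fell. With the first scaling, used below unless said, the rises ran from 1.30-fold at *Dusp14* to 3.06-fold at *Dusp6*.

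MAP kinases are switched on by phosphorylation of a threonine and a tyrosine in their activation loop, and dual-specificity phosphatases remove both phosphates. Many of these phosphatase genes are themselves induced by MAP kinase signalling, which makes a negative feedback loop. In mouse ESCs the ERK branch of this signalling drives exit from self-renewal, and its feedback inhibitors are part of the circuit. The family is usually divided into inducible nuclear enzymes (*Dusp1*, *Dusp2*, *Dusp4*, *Dusp5*), cytoplasmic enzymes selective for ERK (*Dusp6*, *Dusp7*, *Dusp9*) and enzymes that act on JNK and p38 (*Dusp8*, *Dusp10*). *Dusp14* is a small atypical member without the kinase-binding domain of the others.

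PRC2 in ESCs sits mostly at CpG islands, stretches rich in the dinucleotide CpG. The 250 bases before the start site are shown for the 5 genes that the results below turn on, from RefSeq on GRCm38.p6, 5′ to 3′ on the strand of the gene, with every CpG in capitals. *Dusp6* and *Dusp1* gained peaks, *Dusp7* had the largest rise among kept genes, and *Dusp2* and *Dusp8* are the genes where reads fell. The windows are chr10:99262981-99263230 on the plus strand for *Dusp6*, chr17:26508473-26508722 on the minus strand for *Dusp1*, chr9:106368382-106368631 on the plus strand for *Dusp7*, chr2:127335909-127336158 on the plus strand for *Dusp2* and chr7:142095285-142095534 on the minus strand for *Dusp8*.
Dusp6: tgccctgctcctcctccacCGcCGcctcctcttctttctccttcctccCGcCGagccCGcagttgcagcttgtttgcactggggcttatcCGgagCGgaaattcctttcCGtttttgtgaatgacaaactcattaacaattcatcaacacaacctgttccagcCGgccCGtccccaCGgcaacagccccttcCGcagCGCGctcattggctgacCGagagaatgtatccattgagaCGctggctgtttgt
Dusp1: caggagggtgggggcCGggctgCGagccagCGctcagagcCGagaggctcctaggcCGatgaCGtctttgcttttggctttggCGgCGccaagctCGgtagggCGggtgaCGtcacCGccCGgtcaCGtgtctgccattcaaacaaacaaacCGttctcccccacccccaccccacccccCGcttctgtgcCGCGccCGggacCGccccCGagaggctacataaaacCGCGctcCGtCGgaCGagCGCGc
Dusp7: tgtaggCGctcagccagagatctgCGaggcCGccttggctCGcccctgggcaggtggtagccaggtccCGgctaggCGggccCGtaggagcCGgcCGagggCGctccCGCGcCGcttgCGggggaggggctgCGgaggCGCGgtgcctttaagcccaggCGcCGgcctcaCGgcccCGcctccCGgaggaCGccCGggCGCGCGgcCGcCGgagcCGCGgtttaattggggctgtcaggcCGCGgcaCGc
Dusp2: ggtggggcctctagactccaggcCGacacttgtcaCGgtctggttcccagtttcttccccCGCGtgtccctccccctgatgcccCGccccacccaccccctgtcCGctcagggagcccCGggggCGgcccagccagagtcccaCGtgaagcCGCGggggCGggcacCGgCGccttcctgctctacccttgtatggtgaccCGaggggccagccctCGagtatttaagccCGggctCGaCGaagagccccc
Dusp8: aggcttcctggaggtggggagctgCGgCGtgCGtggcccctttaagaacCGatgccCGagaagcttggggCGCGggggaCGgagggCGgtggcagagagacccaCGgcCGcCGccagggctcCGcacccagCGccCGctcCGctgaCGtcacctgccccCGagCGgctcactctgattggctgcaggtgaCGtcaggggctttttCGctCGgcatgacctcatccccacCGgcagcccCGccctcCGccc
The stretch before *Dusp6* holds 16 CpG and long A- and T-rich runs, and that before *Dusp7* holds 34. The stretches before *Dusp1*, *Dusp8* and *Dusp2* hold 28, 25 and 19.

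The libraries had 1323928 to 7340033 reads over the 11943 regions, and the least deep was 1 of the 2 at DRB 0 h. Replicates differed beyond counting noise in every group (chi-square over degrees of freedom, 2.47 to 8.65). The replicates are called biological, but separate cultures are not stated, and p-values thus reflect only the spread between these libraries, which may be technical. Lane numbers in the file headers differ between untreated and treated libraries throughout, so lane and treatment cannot be told apart. No RNA was measured in these libraries, and cell identity could be checked only through Suz12: none of 7 ESC genes (*Pou5f1*, *Nanog* and others) had a peak at an end in any untreated list and 2 of them (*Sox2*, *Klf4*) had one in all 4 treated lists, against 3 of 3 neural, 3 of 3 mesoderm and 2 of 3 endoderm genes with a peak in all 8. Levels below are counts per 1e6 reads over the regions after TMM scaling (CPM). They are relative, and a change shared by every region would not show.

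Among the nuclear enzymes, *Dusp1* and *Dusp5* rose, *Dusp2* fell and *Dusp4* did not pass the test. *Dusp1* encodes an immediate-early enzyme that acts on p38, JNK and ERK. Its region (chr17:26507371-26508604) covers the start site and runs 1101 bp into the gene. The deposited counts there were 17 and 105 reads at DRB 0 h and 96 and 64 at triptolide 0 h, or 13.97, 24.7, 27.5 and 23.1 CPM. They were 41.6 and 41.0 CPM at DRB 12 h, and 37.4 and 37.3 CPM at triptolide 9 h. Every treated library lay above every untreated one, and the shallowest library was also the lowest. The log2 change over both drugs was 0.76 ± 0.16 (SE; edgeR quasi-likelihood test with Benjamini-Hochberg adjustment over all regions, adjusted p = 0.00151). As a gained region it was picked by peaks of the same libraries, so a higher count there follows in part from its class.

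*Dusp5*, whose product is a nuclear phosphatase specific for ERK, rose from 136, 109, 120 and 122 CPM in the untreated libraries to 209 and 180 CPM with DRB and 173 and 171 CPM with triptolide. The groups did not overlap, and the log2 change was 0.60 ± 0.10 (SE; adjusted p = 3.10e-04, edgeR). Its region (chr19:53528017-53531037) spans the start site, from 1128 bp before it to 1892 bp after it, and every list had its peak over the start.

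*Dusp2*, an early-response gene best known from lymphocytes, fell. Its untreated libraries stood at 150, 164, 137 and 157 CPM, and the treated ones at 111 and 117 CPM with DRB and 103 and 112 CPM with triptolide. All 4 treated values lay below all 4 untreated ones. The log2 change was -0.46 ± 0.10 (SE; adjusted p = 0.00149, edgeR). The region (chr2:127335585-127338016) covers the start site and also lies within 1 kb of an end of *Astl*, so its reads cannot be given to 1 of the 2 genes.

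*Dusp4*, a nuclear enzyme that dephosphorylates ERK and JNK, carried the most reads of the 10. It had 360, 369, 403 and 392 CPM in untreated libraries and 374, 400, 428 and 398 CPM in treated ones, which overlap. The log2 change was 0.07 ± 0.08 (SE; adjusted p = 0.448, edgeR). What differed there was the shape of the peaks (chr8:34804667-34810652). The untreated lists had 1 to 3 separate peaks, and each treated list had 1 continuous peak of 5482 to 5975 bp.

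**Figure D1:**
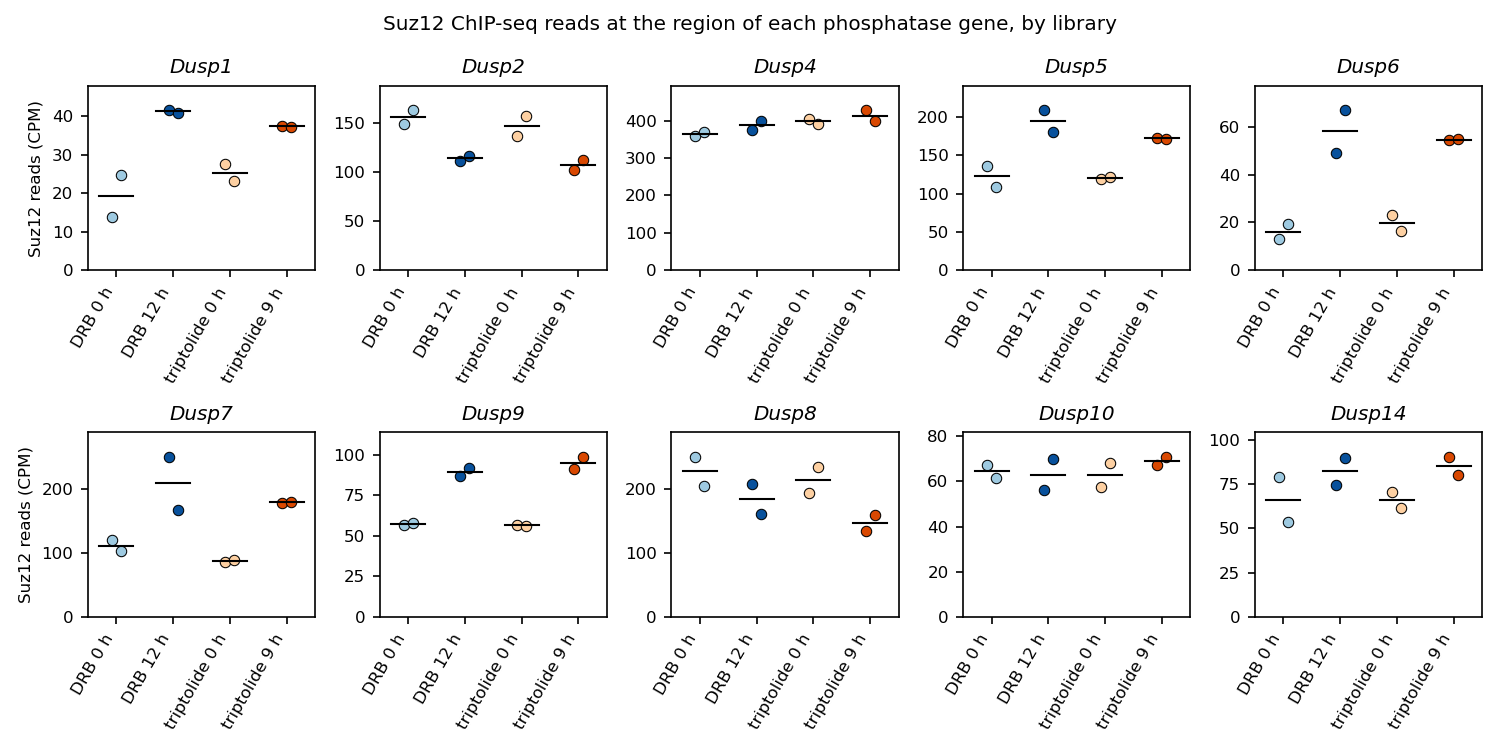
Suz12 reads at the region of each gene in CPM (y axis, from 0, own scale per gene) for the 4 groups (x axis). Points are libraries and bars are group means (n = 2). *Dusp1*, *Dusp5*, *Dusp6*, *Dusp7* and *Dusp9* have all treated points above all untreated ones, and *Dusp2* has them all below.

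The 3 cytoplasmic ERK phosphatases all rose, and at each of them every treated library lay above every untreated one, as in 24.4% of all regions (the *Dusp6* region is gained, and 87.3% of gained regions rose). *Dusp6*, a feedback inhibitor of FGF and ERK signalling, had the largest change of the family. Its untreated libraries held 16, 82, 81 and 45 reads, or 13.1, 19.3, 23.2 and 16.2 CPM. The treated ones stood at 49.2 and 67.0 CPM with DRB and 54.4 and 54.9 CPM with triptolide. The lowest treated value, 49.2 CPM, lay above the highest untreated one, 23.2 CPM. The log2 change was 1.61 ± 0.17 (SE; adjusted p = 1.58e-05, edgeR), against a median of 0.88 over the 1065 gained regions. This region, too, was picked as gained by peaks of the same libraries. It lies inside the gene (chr10:99263361-99264989), from 130 to 1758 bp after the start site, and no list had a peak over the start site itself.

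*Dusp7* rose by a log2 change of 0.97 ± 0.13 (SE; adjusted p = 5.97e-05, edgeR), the largest of the 8 kept genes. Untreated libraries had 120, 103, 86.3 and 89.5 CPM, and treated ones had 251 and 167 CPM with DRB and 179 and 180 CPM with triptolide. The DRB 12 h libraries lay farther apart than those of any other group at this gene, and both were still above the untreated range. *Dusp9*, an X-linked gene that acts downstream of BMP to restrain ERK in ESCs, had the tightest untreated values, at 56.7, 57.9, 56.5 and 56.3 CPM. It rose to 86.8 and 92.0 CPM with DRB and 91.0 and 98.9 CPM with triptolide, a log2 change of 0.70 ± 0.10 (SE; adjusted p = 1.43e-04, edgeR).

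Of the 2 phosphatases of JNK and p38, *Dusp8* fell and *Dusp10* did not pass. *Dusp8* had 251, 205, 194 and 236 CPM in untreated libraries and 208, 162, 134 and 159 CPM in treated ones. The groups overlapped through 1 DRB 12 h library at 208 CPM. The log2 change was -0.42 ± 0.12 (SE; adjusted p = 0.00814, edgeR). *Dusp10*, which encodes a stress-kinase phosphatase, had 67.4, 61.6, 57.3 and 68.2 CPM untreated and 56.0, 69.7, 67.3 and 71.0 CPM treated, with a log2 change of 0.07 ± 0.12 (SE; adjusted p = 0.649, edgeR). Its region (chr1:184032596-184034277) lies wholly before the start site, from 1785 to 104 bp upstream, and is shared with 1700056E22Rik.

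The atypical *Dusp14* passed the test by little. Its libraries had 78.9, 53.4, 70.5 and 61.7 CPM untreated and 74.4, 90.0, 90.5 and 80.3 CPM treated, so the groups overlapped. The log2 change of 0.38 ± 0.14 (SE; adjusted p = 0.0319, edgeR) missed the threshold in DESeq2 (adjusted p = 0.0643), where 23.0% of all regions rose. It also missed it without 1 library, for 5 of the 8 libraries: DRB 0 h index TGACCA (log2 change 0.22, adjusted p = 0.204), DRB 12 h index TGACCA (adjusted p = 0.0677), triptolide 0 h replicate 2 (0.106), triptolide 9 h replicate 1 (0.117) and triptolide 9 h replicate 2 (0.0515). Set against its own 0 h libraries, neither drug gave a call at this gene (DRB 0.38 ± 0.20, adjusted p = 0.141; triptolide 0.37 ± 0.19, adjusted p = 0.138; log2, SE). The triptolide change was called when the triptolide libraries were fitted alone (0.39, adjusted p = 0.0186), with plain sums (0.60, adjusted p = 0.0286) and scaled to kept regions (0.75, adjusted p = 0.0111). The DRB change was called scaled to kept regions (0.69, adjusted p = 0.0224) and without DRB 0 h index ATCACG (0.63, adjusted p = 0.0410).

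Read against all regions, 27.9% rose and 28.9% fell at the same threshold, and the median log2 change was 0.05, against 0.49 over the 10 genes. The 8 kept genes stand in a class that mostly lost reads in relative terms: 10.3% of the 4281 kept regions rose and 59.1% fell, with a median of -0.38. Of the 8 kept phosphatase genes, 4 rose (*Dusp5*, *Dusp7*, *Dusp9*, *Dusp14*), 2 fell and 2 did not pass. Among gained regions 87.3% rose, and both gained phosphatase genes did. In CPM, 24.4% of all regions and 8.46% of kept regions had every treated library above every untreated one, as had 5 of the 10 genes and 3 of the 8 kept ones. The reverse held for 25.2% of all and 53.0% of kept regions, and for *Dusp2* alone here.

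The falls at *Dusp2* and *Dusp8* depend on the scaling. When libraries were scaled to the kept regions, the median over all regions moved by 0.34 in log2, from 0.05 to 0.39, and with plain sums of counts it moved by 0.20. Scaled to kept regions, 8 of the 10 genes rose and none fell in edgeR (0 also at an unadjusted p under 0.05), where 47.4% of all regions rose and 11.2% fell, and 25.7% and 25.0% of kept ones. *Dusp2* then stood at -0.11 (adjusted p = 0.334, edgeR) and *Dusp8* at -0.08 (adjusted p = 0.502), and *Dusp4* and *Dusp10* rose with a log2 change of 0.41 each. With plain sums 7 rose and 1 fell, while 39.0% of all regions rose and 18.7% fell, and 17.7% and 40.6% of kept ones. A change of scaling moves all regions by nearly the same amount, so the distance of a gene from their median is fixed, at 0.51 below it for *Dusp2* and 1.56 above it for *Dusp6* with TMM.

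Each drug was also set against its own 0 h libraries. With DRB, 5 of the 10 genes rose (*Dusp1*, *Dusp5*, *Dusp6*, *Dusp7*, *Dusp9*) and *Dusp2* fell, where 18.1% of all regions rose and 19.2% fell. Of the 8 kept genes 3 rose and 1 fell, against 6.82% and 42.4% of kept regions. With triptolide, 4 rose (*Dusp5*, *Dusp6*, *Dusp7*, *Dusp9*) and *Dusp2* and *Dusp8* fell, against 19.3% and 21.9% of all regions. Of the kept genes 3 rose and 2 fell, against 6.77% and 48.7% of kept regions. *Dusp6* rose by 1.77 ± 0.25 with DRB and by 1.45 ± 0.23 with triptolide (log2, SE). *Dusp1* rose by 0.97 ± 0.23 with DRB, and its value with triptolide was 0.55 ± 0.22 (adjusted p = 0.0606, edgeR). Without DRB 0 h index TGACCA, the deeper of the 2, the DRB value was 1.56, and without index ATCACG, the shallower, it was 0.74. The triptolide value was called with the triptolide libraries alone (0.58, adjusted p = 0.0114), without any 1 of the 4 DRB libraries (0.55 to 0.58, adjusted p = 0.0269 to 0.0359), with plain sums (0.79, adjusted p = 0.0221) and scaled to kept regions (0.93, adjusted p = 0.0114). *Dusp7* rose by 0.91 with DRB, and by 0.60 without DRB 12 h index ATCACG (adjusted p = 0.00610). *Dusp8* was at -0.30 ± 0.17 with DRB (adjusted p = 0.172) and fell by 0.55 ± 0.16 with triptolide.

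The difference between the drug effects was called at none of the 10 genes, with 0 at an unadjusted p under 0.05 in edgeR and 0 in DESeq2. Over all regions 0.0% were higher and 0.0167% lower in this test. The largest difference was at *Dusp1*, where the DRB change exceeded the triptolide change by 0.42 ± 0.32 (log2, SE), and the lowest was -0.15 ± 0.24 at *Dusp10*. Standard errors of this size leave room for a real difference, and doses and times of the drugs differ. Several single-drug calls were lost when 1 library was left out, which leaves a group of 1. Without DRB 0 h index TGACCA, *Dusp2* (-0.39, adjusted p = 0.142) and *Dusp5* (0.52, adjusted p = 0.0586) lost their DRB calls. *Dusp5* lost its triptolide call without any 1 of the 4 triptolide libraries (adjusted p = 0.0572 to 0.0744), while its log2 change stayed at 0.50 to 0.55 against 0.51 and its SE of 0.14 became 0.19 in each. *Dusp2* lost its triptolide call without 0 h replicate 2 (-0.35, adjusted p = 0.139), 9 h replicate 1 (-0.36, adjusted p = 0.183) or 9 h replicate 2 (-0.49, adjusted p = 0.0890), against -0.45 with all. *Dusp8* lost its own without the same libraries (-0.40, -0.41 and -0.65, adjusted p = 0.153, 0.183 and 0.0512), against -0.55 with all. Without 9 h replicate 2 both falls were larger and the call was still lost.

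**Figure D2:**
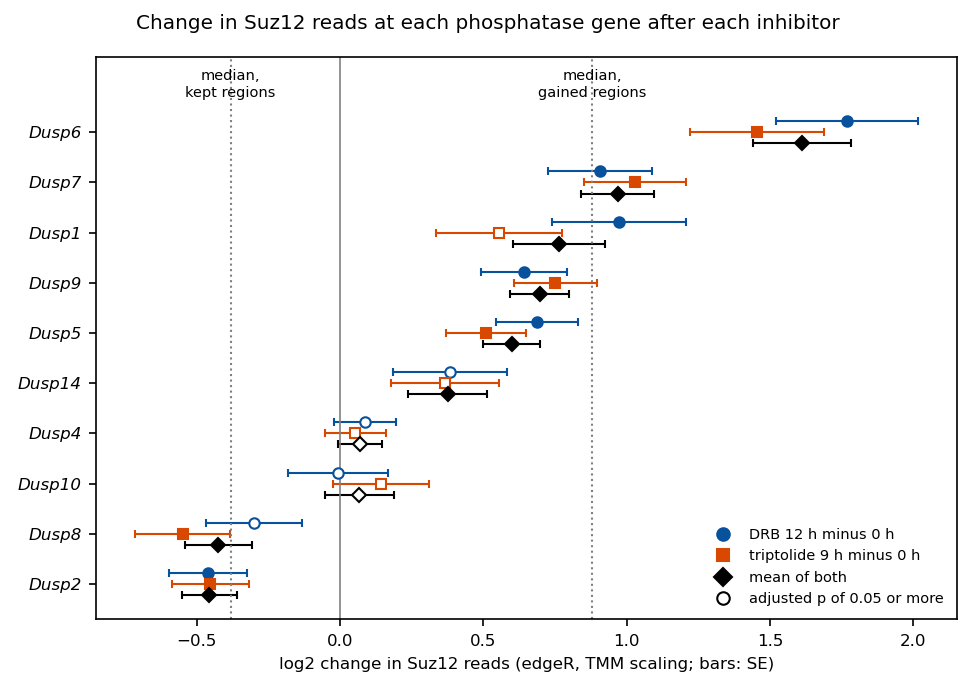
Log2 change in Suz12 reads (x axis) at each gene (y axis, ordered by the mean over both drugs) for DRB, triptolide and their mean. Bars are SE, open symbols have an adjusted p of 0.05 or more, and dotted lines mark the medians of kept (-0.38) and gained (0.88) regions. *Dusp6* lies highest at 1.61 and *Dusp2* lowest at -0.46.

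Peak length is a different measure from read counts, but both come from the same libraries, so they are not independent. At 5 of the 8 kept genes the peaks were longer in every treated list than in any untreated one, which held for 13.1% of kept regions. None was shorter in every treated list (0.467% of kept regions). *Dusp7* peaks covered 1054 to 1443 bp in untreated lists and 2439 to 3276 bp in treated ones, a mean of 1214.5 ± 165 bp against 2996.5 ± 380 bp (SD, n = 4 lists a side). *Dusp9* peaks doubled, from 886 ± 95.6 bp to 1767 ± 44.4 bp (SD, n = 4), a ratio of 2.00. Full separation of 4 lists from 4 fixes the two-sided exact permutation p at 0.0286, the smallest that 70 arrangements allow, so this p adds nothing to the count of 5. It is not adjusted for the 8 genes compared.

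*Dusp14* peaks had a ratio of 1.78 with a wide treated spread (1777 ± 692 bp, SD, n = 4), because DRB 12 h replicate 2 and triptolide 9 h replicate 1 had peaks of 2484 and 2258 bp while the other 2 treated lists had 1159 and 1208 bp. *Dusp5* had a ratio of 1.44 and *Dusp4* of 1.38, while the median ratio over kept regions was 1.04. *Dusp10* (1.22) and *Dusp2* (1.19) overlapped between sides (exact permutation p = 0.2 each). *Dusp8* had a ratio of 1.00. Treated lists held 7153 to 10929 peaks in all and untreated lists 5116 to 6886. Treated libraries had 2416531 to 7340033 reads over the regions and untreated ones 1323928 to 4396751. The part of either in the peak lengths was not tested.

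The longer peaks differ in where they reached. *Dusp9* peaks lay 445 to 1422 bp inside the gene in untreated lists and extended past the gene's end, up to 220 bp outside it, in treated ones. At *Dusp7* the start site was covered in 3 of 4 untreated lists and all 4 treated ones, and treated peaks reached up to 1251 bp outside the gene. *Dusp1* had the start site covered in 4 of 4 treated lists. Its 0 of 4 untreated lists follows from the gained class, since no untreated list had a peak there. At *Dusp2*, *Dusp5*, *Dusp8* and *Dusp14* all 8 lists covered it, and at *Dusp6* and *Dusp10* none did.

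**Figure D3:**
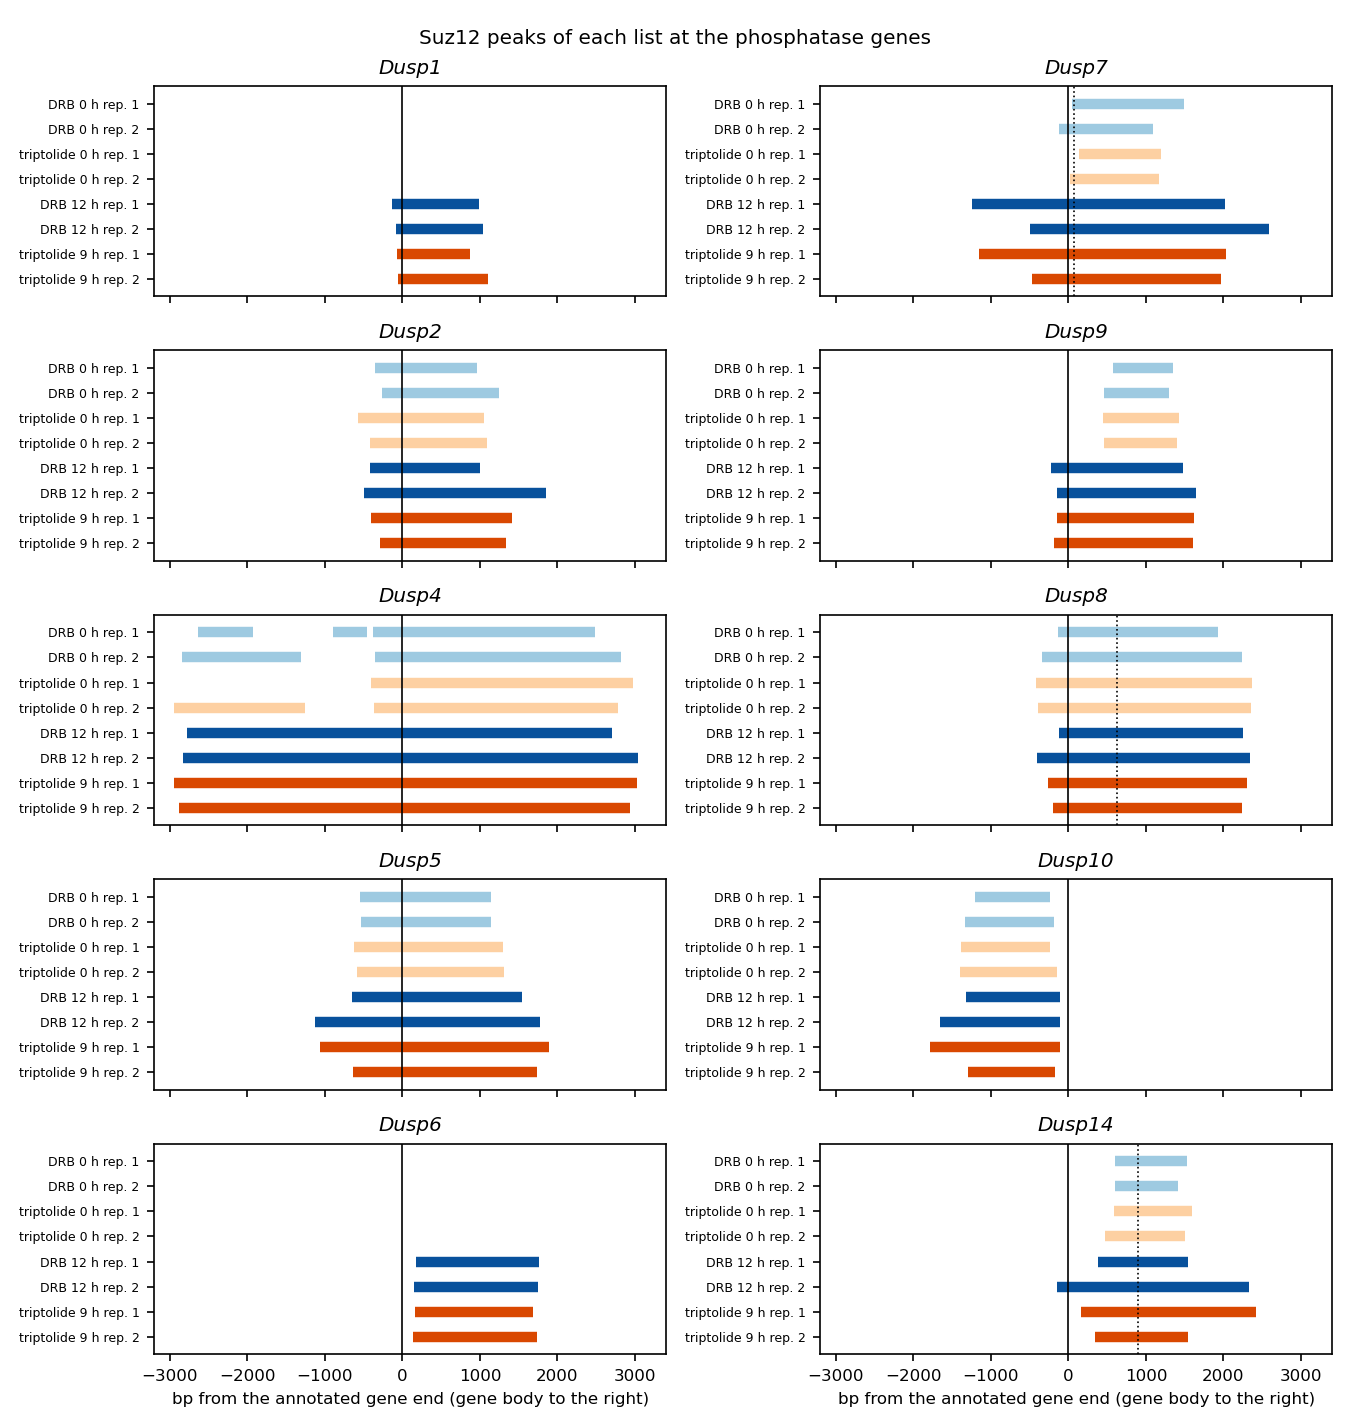
Extent of the Suz12 peaks in each of the 8 lists (rows) in bp from the annotated gene end nearest to the region (x axis, gene body to the right). The solid line is that end and the dotted line the RefSeq start site where it differs. Untreated lists are pale, treated ones dark; *Dusp1* and *Dusp6* have peaks in treated lists alone, and *Dusp4* joins into 1 peak.

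To separate height from spread, the counted interval was split into the narrowest untreated main peak and the rest, its flanks. At every gene but *Dusp8* that interval was a peak of a treated list, so higher treated counts in the flanks follow in part from this choice. The narrow part had every treated library above every untreated one at *Dusp5*, *Dusp7*, *Dusp9* and *Dusp14*, 4 of 8 kept genes, against 8.15% of kept regions split the same way. The flanks did so at *Dusp7* alone (4.35% of kept regions), with 32.9 ± 3.38 CPM untreated and 68.4 ± 15.5 CPM treated (SD, n = 4), a ratio of 2.08 beside 1.88 in its narrow part. At *Dusp9* the narrow part went from 40.9 ± 0.930 to 70.7 ± 4.52 CPM (SD, n = 4). At *Dusp4* the narrow part, 2861 bp long, held 285 and 284 CPM, a ratio of 1.00, and the flanks had a ratio of 1.20 with overlapping libraries. *Dusp2* had ratios of 0.735 in the narrow part and 0.695 in the flanks.

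Other regions lay within 5 kb of some of these genes but outside the rule. Beyond the end of *Dusp9* at which its own region lies, 2 further regions were found. The nearer one (chrX:73636303-73638157) fell from 60.5 ± 10.2 to 46.2 ± 1.95 CPM (SD, n = 4), a log2 change of -0.39 ± 0.12 (SE; adjusted p = 0.0150, edgeR). The farther one (chrX:73635168-73636240) had -0.37 ± 0.15 and did not pass (adjusted p = 0.0502). Scaled to kept regions these were -0.05 and -0.03 (adjusted p = 0.766 and 0.901), while *Dusp9* itself was at 1.04. A kept region inside *Dusp8* (chr7:142081639-142083749) fell by 0.47 ± 0.12 (adjusted p = 0.00565), beside the fall of 0.42 at the start site, and was at -0.13 scaled to kept regions. A small region 1101 bp before *Dusp6*, with a peak in 1 treated list, rose from 6.60 ± 2.64 to 11.8 ± 2.20 CPM (SD, n = 4; log2 change 0.84 ± 0.27 SE, adjusted p = 0.0174).

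Per kb of counted interval, the untreated levels of the 8 kept genes ran from 26.6 to 79.4 and the treated levels from 33.7 to 66.9. The counted interval is the widest peak, which came from a treated list at every gene but *Dusp8*. Shorter untreated peaks are thus averaged with their flanks: at *Dusp7* they covered 1214.5 bp on average, within a counted 3276 bp. The order of untreated levels depends on this choice, and levels per kb of the untreated peaks were not compared. The gained genes *Dusp6* and *Dusp1* had the lowest untreated levels, which the choice of their regions through treated peaks alone fixes in part. The untreated order ran from *Dusp8* (79.4 ± 9.51 CPM per kb; SD, n = 4) through *Dusp2* (64.6), *Dusp4* (63.8), *Dusp5* (41.1), *Dusp10* (37.8), *Dusp9* (31.5), *Dusp7* (30.4), *Dusp14* (26.6) and *Dusp1* (19.3) to *Dusp6* (11.2 ± 2.69). Neighbours whose libraries did not overlap were *Dusp8* and *Dusp2*, *Dusp4* and *Dusp5*, and *Dusp10* and *Dusp9*. All other neighbours overlapped. After treatment *Dusp4* was highest (66.9 ± 3.72 CPM per kb) and *Dusp14* lowest (33.7 ± 3.15), and only *Dusp2* and *Dusp10* were neighbours without overlap.

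**Figure D4:**
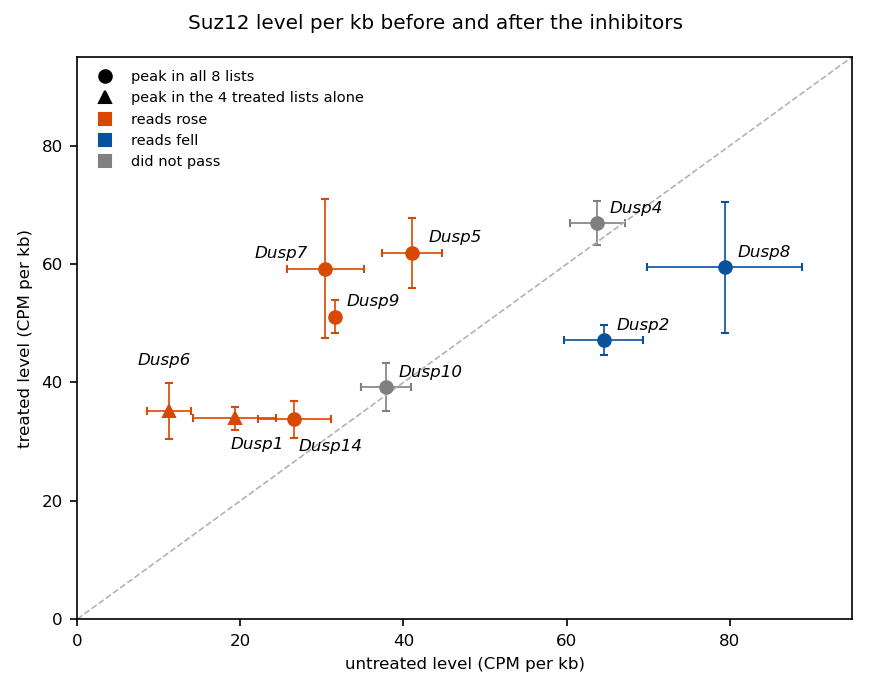
Treated against untreated Suz12 level of each gene in CPM per kb of counted interval (both axes linear, from 0). Points are means and bars SD over 4 libraries a side; the dashed line is equality. Untreated levels run from 11.2 (*Dusp6*) to 79.4 (*Dusp8*) and treated levels from 33.7 (*Dusp14*) to 66.9 (*Dusp4*).

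RefSeq promoter windows (250 bases before to 50 after the start) were matched for 8 of the 10 genes, all but *Dusp4* and *Dusp9*. All 8 had over 50% G+C and a CpG observed-over-expected ratio above 0.6, as had 33.3% of the 32851 promoters of the table. *Dusp7* had the highest G+C (78.7%, with 41 CpG) and *Dusp6* the lowest (57.3%, with 19 CpG). The gene of the largest rise thus had the fewest CpG in its window among the 8, and the gene of the second largest rise the most. The *Dusp6* region begins 130 bp after the start site, beyond this window, so CpG under that region was not counted. *Dusp2*, where reads fell, had the lowest ratio (0.713) and *Dusp14*, where they rose, the highest (1.02). *Dusp8*, where reads also fell, had 0.844. Of the other genes that rose, *Dusp5* (0.840) and *Dusp6* (0.802) lay below it and *Dusp7* (0.900) and *Dusp1* (0.921) above it.

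Motifs were counted in these windows on both strands, where a match is a description of letters and not a bound site. TGACGT, the core of the cAMP response element, was in 3 of 8 (*Dusp1* with 3 matches, *Dusp5* with 1, *Dusp8* with 4) and in 7.51% of all promoters. Its palindromic form gives 2 overlapping matches, as in the printed stretches of *Dusp1* and *Dusp8*. GGGCGG, bound by SP and KLF factors, was in 7 of 8, all but *Dusp6*, and in 35.7% of all promoters. The E-box CACGTG was in *Dusp1* and *Dusp2* (7.15% of promoters). Each of these motifs holds a CpG, and all 8 windows passed both composition thresholds above, as 33.3% of all promoters did. Shares among such promoters alone were not counted. The AP-1 motif TGANTCA, the ETS motif CCGGAAG and TATAAA were in none of the 8, with shares of 7.81%, 8.86% and 13.6% over all promoters.

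**Figure D5:**
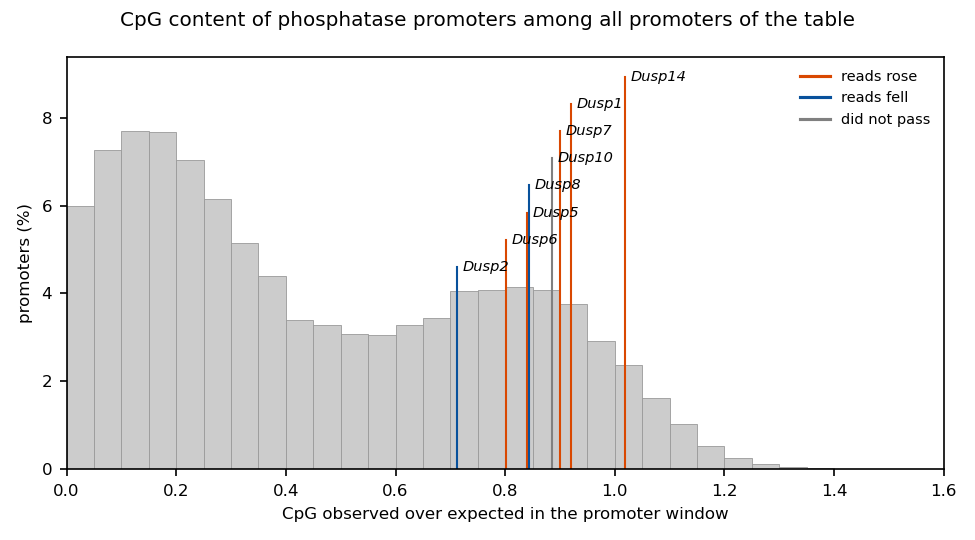
CpG observed over expected (x axis) in 300-base promoter windows as percent of 32851 RefSeq promoters per bin (y axis, grey bars), with the 8 matched genes as lines coloured by their change in reads (line heights serve the labels). All 8 lie above 0.6, from 0.713 (*Dusp2*) to 1.02 (*Dusp14*).

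The rest of the pathway was taken from 7 lists with 99 genes. Of these, 59 had a region at an end, as had 7961 of all 21627 protein-coding genes. The lists, too, were written with earlier results of these data known. Where a gene had more than 1 region, 1 of them was counted. Among the 59, 27 rose, 6 fell and 26 did not pass, with a median log2 change of 0.30. Over all regions 27.9% rose and 28.9% fell, with a median of 0.05. Scaled to kept regions 38 of the 59 rose and 1 fell, where 47.4% of all regions rose and 11.2% fell, and *Jun* was the 1 called gene whose sign changed. Of the 16 other dual-specificity phosphatases 6 had a region. None of them rose (0 in edgeR, 0 at an unadjusted p under 0.05 and 0 in DESeq2), and *Dusp26* (-0.70 ± 0.10 SE, adjusted p = 1.04e-04) and *Dusp15* (-0.51 ± 0.09) fell. *Dusp26* also fell when scaled to kept regions (-0.35, adjusted p = 0.0121), the 1 of the 6 pathway falls that did. *Dusp16*, the third phosphatase of JNK and p38, had no region.

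Of the 10 other feedback inhibitors of ERK signalling, 7 had a region and 5 rose, with a median of 1.00, where 27.9% of all regions rose. Of the 7 regions 1 was kept, 1 was gained and 5 were in neither class. Over all regions 35.8% were kept, and 10.3% of kept regions rose. *Spry2*, a Sprouty inhibitor of receptor tyrosine kinase signalling, rose by 1.74 ± 0.22 (log2, SE). *Spry2* had 2 regions, and this value is from 1 of them, which was in neither class. The level there was low, with 6.15 ± 1.51 CPM untreated and 21.1 ± 6.18 CPM treated (SD). *Spry4*, whose gained region is shared with *Arhgap26*, rose by 1.31 ± 0.13 (log2, SE). *Spred3*, a Sprouty-related inhibitor of Raf activation, rose by 1.07 ± 0.10, in a region shared with *Ggn* and *Psmd8*. The corresponding value of *Dusp6*, a feedback gene of the same pathway, was 1.61.

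The counts of the other lists stand beside the same 27.9% and 28.9%. With 5 to 11 genes a list, none is read as apart from them, the feedback inhibitors included. Among MAP kinases 4 of 10 with a region rose, led by the gained region of *Mapk7* (ERK5; 1.49 ± 0.17), with *Mapk4* at 0.65 ± 0.11 and *Mapk11* at 0.45 ± 0.09. Of their upstream kinases 3 of 9 rose (*Map2k7* 0.88 in a region shared with *Tgfbr3l*, *Braf* 0.63, *Map3k2* 0.54) and 2 fell (*Map3k8* -0.51, *Map3k5* -0.47). Of Ras and adaptor genes 6 of 11 rose, among them *Ptpn11* and *Ksr2* (0.85 each). Of kinases downstream 3 of 5 rose, *Mknk2* (0.93), *Mapkapk5* (0.76) and *Rps6ka4* (0.29). Among transcription factors downstream of ERK 6 of 11 rose and 2 fell. *Myc* rose by 1.49 ± 0.11, *Junb* by 1.19 ± 0.14 and *Elk3* by 1.02 ± 0.17, and *Fos* fell by 0.54 ± 0.09. *Jun* fell by 0.29 ± 0.10 and stood at 0.05 when scaled to kept regions.

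For the 2 genes of largest change, the most similar regions were sought by Euclidean distance of log2 CPM over the 8 libraries, among 7760 genes. Levels and changes of the regions found are thus like those of *Dusp6* and *Dusp7* by the way they were sought. Nearest to *Dusp6* were *Msh5* (distance 0.663; chr17:35045167-35046957), *Ccdc6* (0.707; chr10:70096418-70099053) and *Syngr1* (0.725; chr15:80091050-80092599), all gained. *Msh5* had 19.6 ± 5.60 CPM untreated and 55.7 ± 5.45 treated (SD, n = 4). Nearest to *Dusp7* were *Cadm1* (0.337; chr9:47529834-47532993), *Dact3* (0.382; chr7:16884364-16887176) and *Sgms1* (0.429; chr19:32386457-32390493), all kept, with *Cadm1* at 99.8 ± 4.21 and 192 ± 27.9 CPM.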

How the data were processed

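Suz12 ChIP-seq of E14 ESCs was used from 8 deposited peak lists, 1 per library; a further 12 samples of the series were left out. Bowtie and MACS on mm10 (GRCm38) were used by the authors, per the submitters' processing notes, with versions not given in the sources used here. Per the file headers, the authors deposited raw read counts over each peak in 13 columns, of which 8 matched these groups and 5 were not used. Triptolide columns carry replicate numbers, and DRB columns are named by index because they give no replicate of the labels.

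Peaks overlapping by 1 bp were merged, and a gene's region lay within 1 kb of either end in GRCm38.p6. Counts over the widest peak of a region were tested in edgeR 4.0.16 (R 4.3.3; quasi-likelihood, TMM, 4 groups, no filter) at an adjusted p under 0.05, over all 11943 regions. The test was checked on simulated data. Library totals were not used. Peak length was compared by two-sided exact permutation over lists. Alternatives were DESeq2 1.42.0, other scalings, counts of other peaks, filters, blocks and leaving out libraries. The unit of evidence is the library, and replicate spread is what the SE holds. The members, pathway lists, classes and rules for named genes were chosen with earlier results of these data known. Of each pathway list up to 3 called genes in each direction are named; 1 gene that this rule takes is not reported here.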

Additional observations from a re-analysis of the deposited data

How the results depend on the processing

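Over both drugs *Dusp1*, *Dusp5*, *Dusp6*, *Dusp7* and *Dusp9* rose in all 17 alternatives (lowest log2 changes 0.65, 0.51, 1.47, 0.83 and 0.67). The count of genes that fell over both drugs, 2, became 1 with plain sums of counts and 0 when scaled to kept regions. With DRB, the 1 fall became 0 with plain sums, scaled to kept regions and with DRB libraries alone; leaving out 1 library gave 0 (without DRB 0 h index TGACCA) to 2 (without DRB 12 h index ATCACG). With triptolide, the 4 rises became 7 with plain sums and 8 scaled to kept regions, and the 2 falls became 0 in both. With triptolide libraries alone 6 rose (*Dusp1* and *Dusp14* besides) and 2 fell. Shares of all regions called with a single drug were not counted in these settings, so such counts are not read as particular to these genes. Leaving out triptolide 0 h replicate 2, 9 h replicate 1 or 9 h replicate 2 gave 3 calls and 0 falls with triptolide; the range over left-out libraries is 3 to 7 calls and 0 to 2 falls. Fewer libraries were fitted there, and a group then has 1 library, assumed to vary like the others; the cause of the other changes was not tested. *Dusp10*, never called with TMM, changed sign over both drugs to -0.0207 without DRB 12 h index TGACCA (range over left-out libraries -0.0207 to 0.148). With DRB it was -0.01 and became 0.16 with plain sums, 0.30 scaled to kept regions, 0.05 and 0.12 without DRB 0 h or 12 h index ATCACG, 0.0302 with the DRB index block and 0.0341 over the narrowest peak (range over left-out libraries -0.213 to 0.125). *Dusp8* with DRB became 0.00372 scaled to kept regions. Among peaks of at least the median width (1357 bp) 3 genes were kept instead of 8. With that setting *Dusp1* had no region, and *Dusp9* was gained, as *Dusp6* still was. Of the pathway genes 6 fell, and 1 did when scaled to kept regions. *Dusp4* rose by 0.90 over its narrowest peak, a side peak of 1 untreated list.

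With the replicate number of the triptolide libraries as a replicate block, 8 of 10 genes were called over both drugs, as without it, and the block changed no call of these genes. A replicate block that also holds the DRB index, chosen after seeing the data, gave 8 calls over both drugs, and 8 with each drug instead of 6, with 2 falls with DRB. Shares of all regions called were not counted with either block. Same-numbered triptolide libraries deviated together (r = 0.457 over 8957 regions), as did DRB libraries of 1 index (r = 0.446), but with 2 pairs each the numbers are not shown to pair the samples. At *Dusp1* and *Dusp6*, counts of 17 and 16 reads in the shallowest library limit the precision of the untreated level.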
